A study of Mus musculus with 12 samples.

Results

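The genes described here encode actin itself, the proteins that assemble, cap, cut, bundle and coat actin filaments, and the proteins that tie filaments to the membrane and to focal adhesions. They are 49 genes chosen by symbol, and all 49 were found in a table of 56941 Ensembl gene IDs. The cells were RAW264.7, a mouse macrophage line, seeded on a porous culture insert. In the control group (6 libraries) a cushion of 1% agarose made in culture medium lay on the cells, and in the compressed group (6 libraries) a printed weight on such a cushion applied 0.14 kPa of solid stress. RNA was taken after 24 h in both groups, so all cells lay under agarose and the groups differed by the weight. Whether each library was a culture of its own is not stated in the sources used here, so the p-values measure the spread between these libraries, which may be technical.

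Actin is made as a soluble monomer that adds to filament ends. Profilin and the thymosins bind the monomer, the Arp2/3 complex and formins start new filaments, capping proteins and gelsolin stop or sever them, cofilin returns them to monomer, and tropomyosins, fascin, filamin and alpha-actinin coat filaments or join them into networks. In macrophages these networks drive ruffling, phagocytosis and migration, and talin, vinculin, paxillin and zyxin couple them to integrins at adhesion sites.

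The libraries held 37948795 to 40463545 counts in the control group and 33460807 to 39103987 in the compressed group. As a check of the labelled cell type, 11 macrophage markers summed to 6669 to 7144 CPM (counts of a gene relative to the whole library as scaled by edgeR's TMM factors) in the controls and 8175 to 10213 CPM in the compressed libraries. The highest sums in any library were 0.914 CPM for 8 fibroblast markers, 0.151 for 6 epithelial, 0.0970 for 6 lymphocyte, 0.478 for 5 neutrophil and 7.94 CPM for 5 endothelial markers, most of the last from Vwf. The 11 macrophage markers did not move together: 5 rose, 3 fell and 3 did not pass the test (edgeR, adjusted p of 0.05 or less). The higher sum came mostly from Lyz2, with a mean of 2678 CPM in the controls and 4204 in the compressed libraries, and Cd14, with 969 and 1488 CPM, whereas Csf1r fell by 0.22, Cd68 by 0.17 and Fcgr1 by 0.39 on the log2 scale. Their part in the results below was not tested. These are bulk samples, in which fewer cells of a kind and less RNA per cell cannot be told apart.

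Compressed replicate 6 stood apart from the other 5 compressed libraries. Its shorter transcripts read high and its longer ones low: its log2 CPM minus the mean of compressed replicates 1 to 5 had a median of 0.36 over the 25 shorter of the 49 transcripts and -0.50 over the 24 longer ones. Across the 49 genes this difference went down with exonic length (Spearman rho = -0.765, a description over genes of the same libraries), and across 14657 tested genes of known length rho was -0.552. Profilin 1 (Pfn1, 2.41 kb) read 1746 CPM in this library and 908 to 964 CPM in the other 5, whereas filamin A (Flna, 9.40 kb) read 345 CPM against 823 to 1010 CPM. With all 6 compressed libraries against the controls, rho of the log2 difference with length was -0.388 over the 49 genes (median 0.17 in the shorter and -0.05 in the longer ones) and -0.066 over all tested genes. For compressed replicates 1 to 5 against the controls it was -0.142 and 0.076. The log2 fold change of each gene named below that passed with all 12 libraries is therefore given without this one as well. Of the macrophage markers named above, Lyz2 and Cd14 rose by 0.57 and 0.52 without it. Csf1r, Cd68 and Fcgr1 fell by 0.15, 0.16 and 0.43 on the log2 scale. What set replicate 6 apart was not tested.

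**Figure D1:**
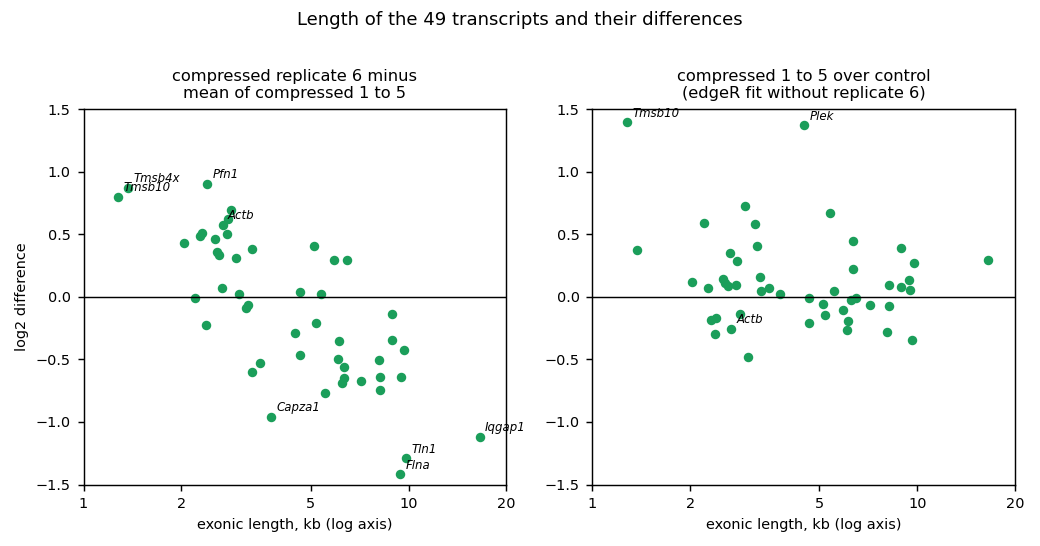
Exonic length in kb (log axis) of the 49 transcripts against the log2 difference between compressed replicate 6 and the mean of compressed replicates 1 to 5 (left), and against the edgeR log2 fold change of compressed replicates 1 to 5 over the 6 controls (right); each point is 1 gene. On the left 17 of the 25 shorter transcripts lie above 0 and 19 of the 24 longer ones below (rho = -0.765), and on the right Tmsb10 and Plek stand above the rest at 1.40 and 1.37.

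With all 12 libraries, 15 of the 49 genes (30.6%) rose under compression, 8 (16.3%) fell and 26 did not pass the test (edgeR, adjusted p of 0.05 or less over 15001 tested genes). Among all tested genes 24.5% rose and 21.9% fell, so the shares of the actin and adhesion genes lay near the background. The median log2 fold change was 0.05 over the 49 genes and 0.02 over all tested genes. All 49 had passed the filter on low counts. Without compressed replicate 6, 26 of the 49 (53.1%) rose, 14 (28.6%) fell and 9 did not pass, where the background was 33.8% and 32.2%. Each of the 23 genes called with 12 libraries was called again in the same direction, and 17 more passed. In the annotation used for names, the span of 22 of the 49 genes overlapped a counted gene on the other strand and that of 12 a counted gene on the same strand. Since the strand setting of the counting is not given, reads of such neighbours, as of the processed copies that Tmsb4x, Pfn1, Cfl1 and the actins have elsewhere in the genome, may not be told apart.

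In 13 genes all 6 compressed libraries read above every control and in 8 all read below, against 16.5% and 17% of all tested genes. Tested against a change of 1.2-fold rather than against no change, 9 genes rose (14.2% of all tested genes did) and 2 fell (10.3%). The 9 were Actg1, Tmsb4x, Tmsb10, Evl, Coro1b, Gsn, Plek, Tpm4 and Zyx, and the 2 were Coro1c and Fscn1.

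**Figure D2:**
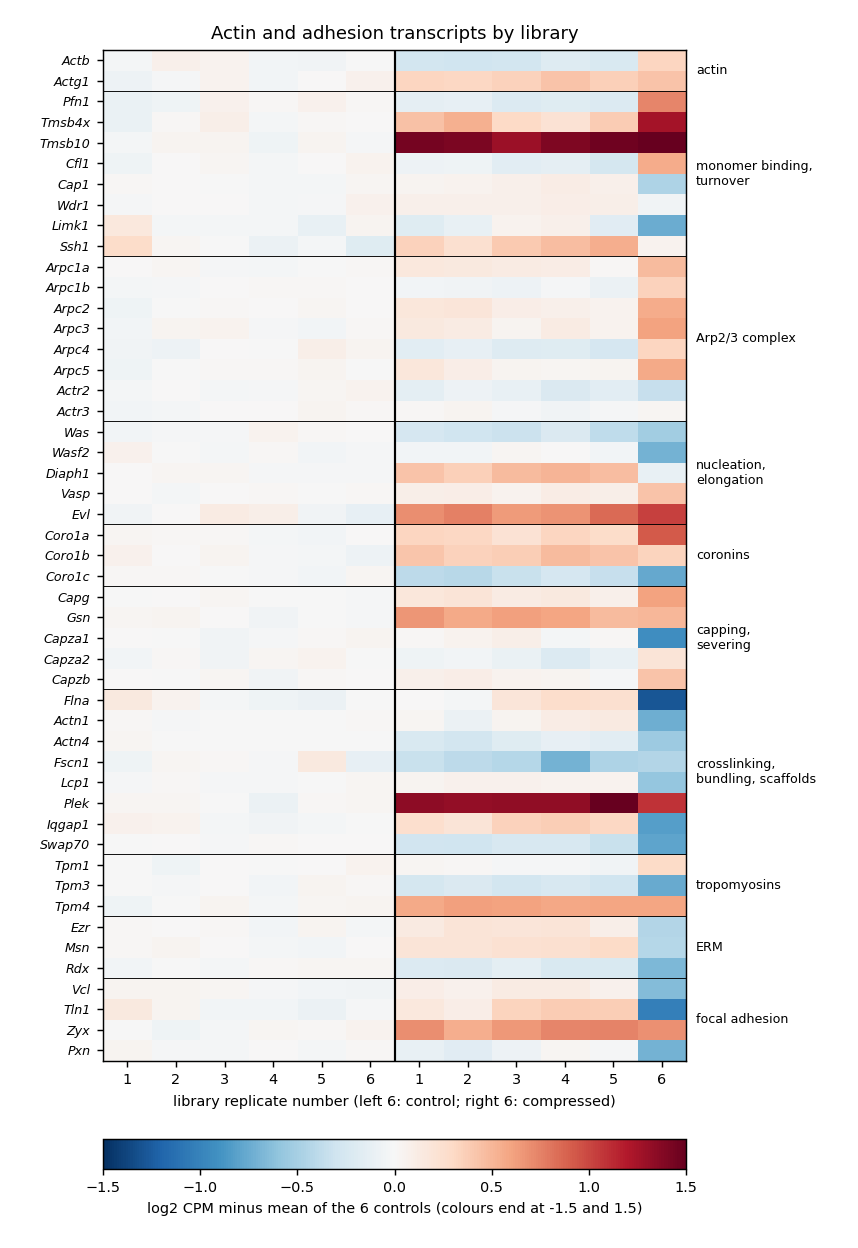
Log2 CPM of each of the 49 transcripts (rows, grouped by role) minus its mean in the 6 controls, in each of the 12 libraries (columns; controls left of the line, compressed libraries right), with colours ending at -1.5 and 1.5. Compressed replicates 1 to 5 resemble each other row by row, and replicate 6 departs from them in many rows, as in Pfn1, Flna and Tln1, but shares the high values of Tmsb10, Plek, Zyx, Gsn and Tpm4.

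Together the 49 genes took 2.55% ± 0.0217 of all counts in the controls and 2.61% ± 0.0312 in the compressed libraries (SD, n = 6 each). The controls lay between 2.52% and 2.58% and the compressed libraries between 2.59% and 2.66%, so the groups did not overlap, by a margin that is small beside the changes of single genes. This rise of the mean was no more than that of the gene Plek alone, from a mean of 575 to 1443 CPM. The mean share of the other genes together did not rise. Transcripts of the actin isoforms took 0.437% to 0.470% of counts in the controls, 0.370% to 0.395% in compressed replicates 1 to 5 and 0.534% in replicate 6. The crosslinkers, bundlers and scaffolds took 0.512% to 0.536% in the controls, 0.593% to 0.644% in compressed replicates 1 to 5 and 0.378% in replicate 6. Most of the rise of the latter in replicates 1 to 5 was the gene Plek: without it the role took 0.456% to 0.476% in the controls, 0.452% to 0.487% in compressed replicates 1 to 5, which overlap, and 0.261% in replicate 6.

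Per kb of exon, beta-actin (Actb) had the highest level of the 49 genes in the controls, 1490 CPM per kb. It ranked 10 among the 52000 gene IDs of known exonic length, tested or not. Cofilin 1 (Cfl1) followed at 529, profilin 1 (Pfn1) at 437, the capping protein Capg at 412 and Arpc2 at 315 CPM per kb. Fascin (Fscn1), which bundles filaments in protrusions, was lowest at 0.523 CPM per kb. Of the genes named here, the called gene of highest level per kb was Capg.

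The pair of cytoplasmic actins did not change alike. Gamma-actin (Actg1) read 385.7, 406 and 424 CPM in the controls (lowest, median and highest) and 504, 518 and 547 CPM in the compressed libraries, with replicate 6 at 545 CPM. All 6 compressed libraries lay above all controls. Its log2 fold change was 0.36 (SE 0.042, 1.29-fold, edgeR adjusted p = 9.03e-06) and 0.35 without replicate 6. Beta-actin read 3860, 3937 and 4206 CPM in the controls and 3246 to 3494 CPM in compressed replicates 1 to 5, but 4997 CPM in replicate 6. With 12 libraries its log2 fold change of -0.14 (SE 0.097) did not pass (edgeR adjusted p = 0.266), and without replicate 6 it fell by 0.25 on the log2 scale (edgeR adjusted p = 4.39e-07). Within each library, the ratio of Actb to Actg1 counts was 9.39 to 10.4 in the controls, 6.38 to 6.59 in compressed replicates 1 to 5 and 9.17 in replicate 6. It was lower in all 6 compressed libraries than in any control (log2 difference of means -0.52, exact permutation test, two-sided, p = 0.00216, adjusted over 13 ratios 0.00313, n = 6 each; -0.60 without replicate 6). That p is the smallest that 6 against 6 libraries can give, and without replicate 6 the smallest is 0.00433. The 2 proteins are nearly identical and their coding sequences are alike, so reads that fit both could be given to either gene or dropped, and the counts do not show which was done.

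The promoter of Actg1 is printed because it is the called gene whose RefSeq promoter window holds a CArG box, the site of serum response factor, a regulator of many actin genes. The window runs from 250 bases before to 50 bases after the start site, at chr11:120348446-120348745 on the minus strand of GRCm38.p6, with the box in capitals:
Actg1 promoter: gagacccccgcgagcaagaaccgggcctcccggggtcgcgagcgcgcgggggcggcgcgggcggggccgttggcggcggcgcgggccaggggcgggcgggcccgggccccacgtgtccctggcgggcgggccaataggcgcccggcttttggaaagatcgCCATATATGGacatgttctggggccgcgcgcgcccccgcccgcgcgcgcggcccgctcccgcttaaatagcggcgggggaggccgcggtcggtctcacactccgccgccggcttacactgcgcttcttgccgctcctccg
The box begins 90 bases before the start site. Windows were found for 45 of the 49 genes, and 3 of them (6.67%) held a CArG box on either strand, against 1.51% of 9631 tested genes and 1.81% of all 27025 genes with a window. Counted by window it was 3 of 55 (5.45%) against 1.63% of all 32851. The other 2 were Vcl, with the box 227 bases before its start, and Arpc4, at 250 bases before. A match of letters is a description of the window and not a measured binding site. Neither gene was called with 12 libraries, and without replicate 6 Vcl rose by 0.09 and Arpc4 fell by 0.19 on the log2 scale.

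Among the 8 genes of monomer binding and turnover, 3 rose (37.5%) and 0 fell, where 24.5% and 21.9% of all tested genes did. The largest change of the 49 genes was that of Tmsb10, which encodes thymosin beta 10, a small peptide that sequesters actin monomer. Tmsb10 read 73.6, 77.8 and 79.4 CPM in the controls and 187, 207 and 354 CPM in the compressed libraries, the last in replicate 6. No compressed library came near the controls, and the log2 fold change was 1.57 (SE 0.134, 2.96-fold, edgeR adjusted p = 4.85e-07) or 1.40 without replicate 6. Its relative Tmsb4x, thymosin beta 4, read 370.0, 402 and 422 CPM in the controls and 463, 529 and 944 CPM in the compressed libraries, again with replicate 6 highest. It rose by 0.56 (SE 0.146, edgeR adjusted p = 0.00595), and by 0.38 without replicate 6. Both are among the shortest transcripts of the group, at 1.28 and 1.37 kb. The ratio of Tmsb4x to Tmsb10 went from 4.90 to 5.31 in the controls down to 2.27 to 2.81 in the compressed libraries, where replicate 6 lay inside the range of the others at 2.67 (log2 difference -1.01, exact permutation test, adjusted p = 0.00313; -1.02 without replicate 6).

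The third gene of this role that rose was Ssh1, a phosphatase that activates cofilin, with a log2 fold change of 0.34 (edgeR adjusted p = 0.00687; 0.39 without replicate 6). The kinase that opposes it, Limk1, had -0.16 and did not pass (edgeR adjusted p = 0.271). For Pfn1 and Cfl1 the 12-library fit gave 0.02 and 0.00 and replicate 6 read high in both. Cfl1 read 1436 to 1561 CPM in the controls, 1258 to 1437 CPM in compressed replicates 1 to 5 and 2207 CPM in replicate 6. Without that library Pfn1 fell by 0.17 and Cfl1 by 0.14 on the log2 scale (edgeR adjusted p = 1.27e-04 and 0.00133). Cap1 and Wdr1, which help cofilin to recycle filaments, did not pass with 12 libraries and rose by 0.07 and 0.08 without replicate 6.

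**Figure D3:**
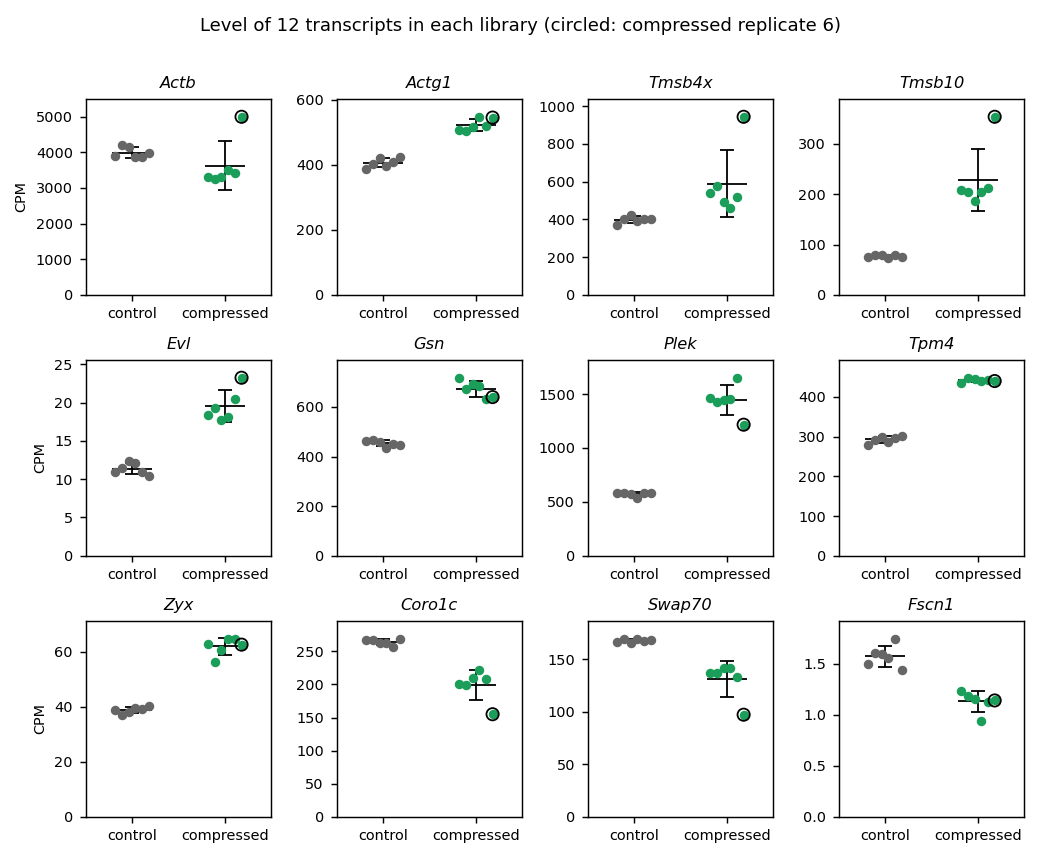
CPM of 12 of the 49 transcripts in each control (grey) and compressed (green) library, with the mean and SD of the 6 libraries of each group as bars and compressed replicate 6 circled. Compressed libraries lie above all controls for Actg1, Tmsb4x, Tmsb10, Evl, Gsn, Plek, Tpm4 and Zyx and below them for Coro1c, Swap70 and Fscn1, while for Actb the circled point lies above and the other 5 below the controls.

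The Arp2/3 complex, which starts branches on existing filaments, is built from Actr2, Actr3 and the Arpc subunits, of which Arpc1 is made from either Arpc1a or Arpc1b. Its 8 genes had log2 fold changes from -0.18 to 0.20. Of them 2 rose (25%) and 1 fell (12.5%), where 24.5% and 21.9% of all tested genes did. Actr2 fell by 0.18 on the log2 scale (SE 0.0488, edgeR adjusted p = 0.00911; by 0.15 without replicate 6), from 596 to 631 CPM in the controls to 479 to 577 CPM in the compressed libraries. Arpc2 had 0.20 and Arpc1a 0.18, with edgeR adjusted p-values of 0.0435 and 0.0381, and both lost the call on leaving out any 1 control or compressed replicate 1 or 2. Without replicate 6 they had 0.12 and 0.11 and passed. Its other actin-like subunit, Actr3, read 428 to 454 CPM in the controls and 423 to 452 CPM in the compressed libraries, replicate 6 included, with a log2 fold change of 0.00 (SE 0.0373). The ratio of Actr2 to Actr3 went from 1.35 to 1.42 in the controls to 1.07 to 1.30 in the compressed libraries, and that of Arpc1b to Arpc1a from 16.3 to 17.2 to 14.6 to 15.6. Both ratios were lower in all 6 compressed libraries (log2 differences -0.18 and -0.16, exact permutation test, adjusted p = 0.00313 each; -0.14 and -0.17 without replicate 6). Without replicate 6, Arpc3 and Arpc5 also rose, by 0.10 and 0.07, and Arpc1b and Arpc4 fell by 0.06 and 0.19 on the log2 scale.

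Of the nucleation and elongation factors, Evl rose the most. Evl and Vasp belong to the Ena/VASP family, which lengthens filaments at their growing ends. Evl read 10.5, 11.2 and 12.4 CPM in the controls and 17.7, 18.8 and 23.2 CPM in the compressed libraries (log2 fold change 0.78, SE 0.0726, edgeR adjusted p = 1.08e-06; 0.72 without replicate 6). Vasp, at 478 to 493 CPM in the controls, was far more abundant and had 0.15 (edgeR adjusted p = 0.0589; 0.09 without replicate 6, which passed), so that the ratio of Vasp to Evl went from 39.6 to 47.1 down to 25.2 to 29.0, with replicate 6 inside that range at 28.2 (log2 difference -0.63, exact permutation test, adjusted p = 0.00313; -0.64 without replicate 6). The formin Diaph1, which builds unbranched filaments, read 151 to 156 CPM in the controls, 197 to 218 CPM in compressed replicates 1 to 5 and 142 CPM in replicate 6. It rose by 0.37 with 12 libraries (edgeR adjusted p = 0.00338) and by 0.44 without replicate 6. Was, the haematopoietic activator of the Arp2/3 complex that is mutated in Wiskott-Aldrich syndrome, fell by 0.33 on the log2 scale (edgeR adjusted p = 1.32e-04; by 0.30 without replicate 6), with all 6 compressed libraries below the controls. Wasf2, which serves the complex in lamellipodia, had -0.11 and did not pass (edgeR adjusted p = 0.384).

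All 3 coronins changed, in opposite directions. Coronins bind filaments and the Arp2/3 complex, and Coro1a is the form most typical of blood cells. Coro1a rose by 0.41 (edgeR adjusted p = 0.00442; 0.29 without replicate 6) and Coro1b by 0.40 (edgeR adjusted p = 3.78e-06; 0.41 without replicate 6). Coro1c read 257, 265 and 269 CPM in the controls and 155, 205 and 222 CPM in the compressed libraries, the lowest in replicate 6, and it fell by 0.41 on the log2 scale (SE 0.0715, edgeR adjusted p = 3.38e-04) or by 0.35 without that library. Every compressed library lay below every control for Coro1c and above for both others. The ratio of Coro1c to Coro1a was 0.594 to 0.615 in the controls, 0.368 to 0.414 in compressed replicates 1 to 5 and 0.189 in replicate 6 (log2 difference -0.81, exact permutation test, adjusted p = 0.00313; -0.64 without replicate 6). For Coro1b to Coro1a the ratio did not differ with 12 libraries (log2 difference 0.00, exact permutation test, adjusted p = 1.0), and without replicate 6 it was higher by 0.12 (exact permutation test, adjusted p = 0.00469).

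Gelsolin (Gsn), which severs filaments and caps them in response to calcium, rose from 436.5, 455 and 468 CPM in the controls to 631, 679 and 718 CPM in the compressed libraries. Replicate 6, at 640 CPM, lay among the others, and the log2 fold change was 0.57 (SE 0.044, 1.48-fold, edgeR adjusted p = 1.89e-07) or 0.58 without it. Its relative Capg, a macrophage capping protein, had 0.23 (edgeR adjusted p = 0.0282) and 0.14 without replicate 6, and was not called on leaving out control replicate 1, 4, 5 or 6. Of the genes of the capping protein heterodimer none passed with 12 libraries: Capza1 had -0.09, Capza2 -0.05 and Capzb 0.12. Without replicate 6 Capza2 fell by 0.10 on the log2 scale and the others did not pass. Capza1 read 154 CPM in replicate 6 and 289 to 312 CPM in the other compressed libraries, and the ratio of Capza1 to Capza2 had a log2 difference of -0.08 with replicate 6 and 0.13 without it (exact permutation test, adjusted p = 1.0 and 0.00469).

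Among the 8 crosslinkers, bundlers and scaffolds, 1 gene rose (12.5%) and 3 fell (37.5%), where 24.5% and 21.9% of all tested genes did. The gene that rose was pleckstrin (Plek), a substrate of protein kinase C in platelets and leukocytes that binds membrane phosphoinositides. Plek read 539, 584 and 586 CPM in the controls and 1216, 1448 and 1652 CPM in the compressed libraries, the lowest of them replicate 6. Its log2 fold change of 1.33 (SE 0.0634, 2.51-fold, edgeR adjusted p = 2.52e-09) had the smallest adjusted p of the 49 genes and was 1.37 without replicate 6. Fascin read 1.44, 1.58 and 1.75 CPM in the controls and 0.944, 1.15 and 1.24 CPM in the compressed libraries, and fell by 0.48 on the log2 scale (SE 0.094, edgeR adjusted p = 9.03e-04; by 0.48 also without replicate 6). Swap70, a phosphoinositide-binding protein that joins filaments at ruffles, fell by 0.35 (edgeR adjusted p = 0.00227) and alpha-actinin 4 (Actn4) by 0.25 (edgeR adjusted p = 0.00571), or by 0.28 and 0.20 without replicate 6.

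In 4 long transcripts of this role the values turned on replicate 6. Flna, Iqgap1, Lcp1 and Actn1 read lower in that library than in any other, and none passed with 12 libraries. Iqgap1, a scaffold for Rac and Cdc42, read 822 to 889 CPM in the controls, 972 to 1102 CPM in compressed replicates 1 to 5 and 482 CPM in replicate 6, and without that library it rose by 0.29 (edgeR adjusted p = 2.23e-07). Flna rose by 0.13 without it (edgeR adjusted p = 0.029), whereas Lcp1, the leukocyte plastin, had 0.05 and did not pass (edgeR adjusted p = 0.0523). The ratio of Actn1 to Actn4 was 0.532 to 0.544 in the controls, 0.617 to 0.659 in compressed replicates 1 to 5 and 0.476 in replicate 6 (log2 difference 0.17, exact permutation test, adjusted p = 0.0253; 0.24 without replicate 6).

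Tropomyosins lie along the filament and decide which other proteins reach it. Tpm4 read 279.8, 295 and 301 CPM in the controls and 436, 441 and 448 CPM in the compressed libraries, a spread of the compressed group narrower than the gap between the groups, and replicate 6 was at 439.8 CPM. It rose by 0.59 (SE 0.0367, 1.51-fold, edgeR adjusted p = 2.32e-08), and by 0.59 also without replicate 6. Tpm3 fell by 0.33 on the log2 scale (edgeR adjusted p = 0.00315; by 0.26 without replicate 6), and Tpm1 had 0.05 and did not pass. In the controls Tpm3 counts outnumbered those of Tpm4, with a ratio of 1.58 to 1.67, and in all compressed libraries Tpm4 outnumbered Tpm3, with a ratio of 0.863 to 0.904 in replicates 1 to 5 and 0.633 in replicate 6 (log2 difference -0.94, exact permutation test, adjusted p = 0.00313; -0.85 without it). Of the 13 ratios between paralogs and subunits taken here, 10 differed between the groups with 12 libraries and 12 without replicate 6. No share stands beside these counts, since pairs of other genes were not taken. Among all tested genes 24.5% rose and 21.9% fell with 12 libraries, and 33.8% and 32.2% did without replicate 6. How often ratios of other pairs would differ was not tested. The ratios are of counts per gene and not per length, so they do not give the order of the levels of Tpm3 and Tpm4. Per kb of exon, Tpm4 had the higher mean in both groups. It was 133 CPM per kb against 77.2 for Tpm3 in the controls, and 200 against 61.3 in the compressed libraries.

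**Figure D4:**
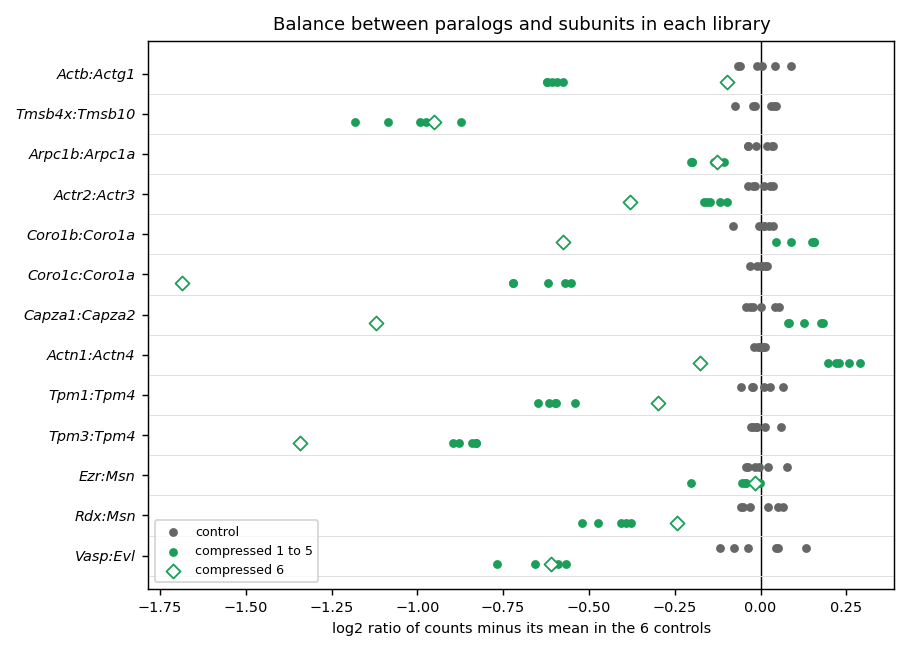
Log2 ratio of counts of 13 pairs of paralogs or subunits in each library, as the difference from the mean of the 6 controls (grey points, control; green points, compressed 1 to 5; open diamonds, compressed 6). For 9 pairs all 6 compressed libraries lie to the left of every control, among them Tmsb4x:Tmsb10 and Tpm3:Tpm4, and for Coro1b:Coro1a, Capza1:Capza2 and Actn1:Actn4 the diamond lies on the other side of the controls from the other compressed libraries. Pairs of other genes were not taken for comparison.

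Of the ERM proteins, which link filaments to the plasma membrane, radixin (Rdx) fell by 0.27 on the log2 scale (edgeR adjusted p = 0.00772; by 0.21 without replicate 6) and ezrin (Ezr) and moesin (Msn) did not pass, with 0.07 and 0.14. Without replicate 6, Ezr rose by 0.16 and Msn by 0.22. Msn had the highest level per length of the 3, at 115 CPM per kb in the controls against 38.6 for Rdx and 21.6 for Ezr. The ratio of Rdx to Msn went from 0.236 to 0.257 down to 0.172 to 0.208 (log2 difference -0.40, exact permutation test, adjusted p = 0.00313; -0.43 without replicate 6). For Ezr to Msn it had a log2 difference of -0.06 and was the pair that missed the threshold both with and without replicate 6 (exact permutation test, adjusted p = 0.087 and 0.0649).

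At focal adhesions, zyxin (Zyx), which is recruited to filaments and adhesions under tension, rose from 36.95, 38.9 and 40.1 CPM in the controls to 56.4, 62.6 and 64.7 CPM in the compressed libraries. Replicate 6 lay at the median of its group, at 62.5 CPM, and the log2 fold change was 0.68 (SE 0.0444, 1.60-fold, edgeR adjusted p = 4.04e-08) or 0.67 without it. The 3 other adhesion genes are long and read low in replicate 6. Talin 1 (Tln1), which activates integrins, read 1178 to 1382 CPM in the controls, 1337 to 1630 CPM in compressed replicates 1 to 5 and 615 CPM in replicate 6. Its log2 fold change was 0.12 with 12 libraries (edgeR adjusted p = 0.614) and 0.27 without replicate 6 (edgeR adjusted p = 8.79e-05). Vinculin (Vcl) rose by 0.09 without replicate 6, and paxillin (Pxn) had -0.16 and -0.07 and passed in neither of these fits. With each library's trend with exonic length removed, Pxn fell by 0.13 on the log2 scale (12 libraries, edgeR adjusted p = 0.0161).

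**Figure D5:**
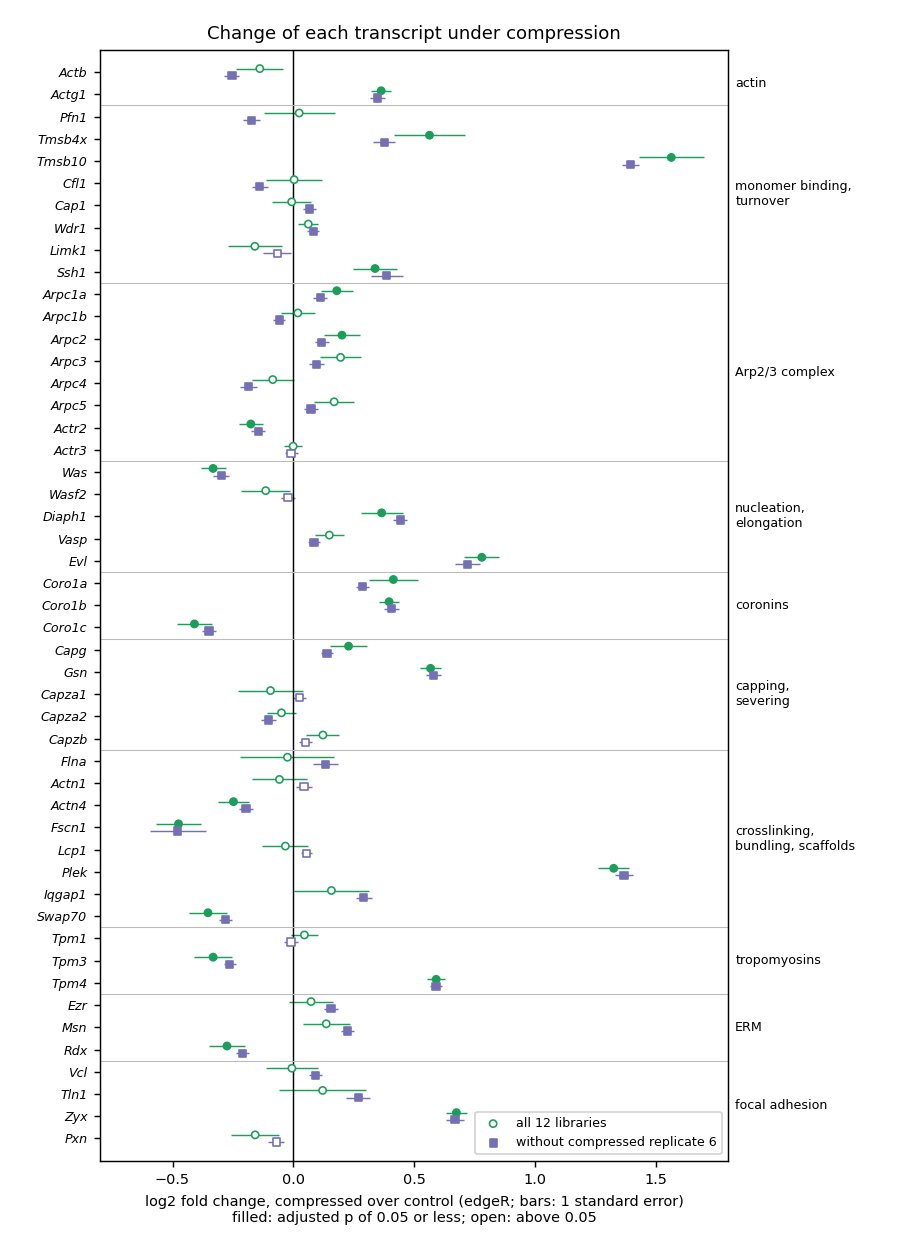
edgeR log2 fold change of compressed over control for each of the 49 transcripts, grouped by role, with all 12 libraries (green circles) and without compressed replicate 6 (purple squares); bars are 1 standard error and filled symbols have an adjusted p of 0.05 or less. Leaving out replicate 6 shortens most bars and fills the symbols of 17 more genes, while Tmsb10 and Plek stand far to the right in both fits.

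Other genes of the same systems were counted from lists set beside these 49. Of 64 tested genes among 72 other actin regulators, 18 (28.1%) rose and 9 (14.1%) fell, where 24.5% and 21.9% of all tested genes did, and their median log2 fold change was 0.12. Without replicate 6, 41 (64.1%) rose and 13 (20.3%) fell, against 33.8% and 32.2% of all tested genes. Nckap1, a subunit of the WAVE complex, rose by 1.23, the profilin Pfn2 by 0.85 and Gmfg, a debranching factor of blood cells, by 0.84, while the formin Diaph3 fell by 0.89 on the log2 scale (edgeR adjusted p = 9.23e-06, 5.11e-04, 7.56e-04 and 3.34e-05). Without replicate 6 these were 1.34, 0.84 and 0.67, and a fall of Diaph3 by 0.79. Pfn2 and Gmfg were low, with means of 0.789 and 2.08 CPM in the controls and 1.42 and 3.72 CPM in the compressed libraries. The profilin Pfn1 had a mean of 1051 CPM in the controls. Diaph1 and Diaph3 thus changed in opposite directions.

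Of 35 tested genes among 39 other focal adhesion genes, 14 (40%) rose and 3 (8.57%) fell beside the same 24.5% and 21.9%, and 18 (51.4%) and 6 (17.1%) did without replicate 6 beside 33.8% and 32.2%. The integrin activator Fermt2 rose from 0.0242 to 0.267 CPM in the controls to 1.53 to 2.31 CPM in the compressed libraries (log2 fold change 3.58, edgeR adjusted p = 1.5e-07; 3.58 also without replicate 6), from 38 counts in all controls together to 408 in the compressed libraries. Its relative Fermt3 was far more abundant, with means of 322 and 343.5 CPM. Fermt3 had 0.09 and did not pass (edgeR adjusted p = 0.0898; 0.11 without replicate 6, which passed). Lims2, a partner of integrin-linked kinase, rose by 1.33, the zyxin relative Lpp by 1.28 and the docking protein Bcar1 by 1.15 (edgeR adjusted p = 1.78e-10, 6.31e-05 and 7.68e-08), or by 1.34, 1.42 and 1.2 without replicate 6.

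For serum response factor and its partners, which govern transcription of many actin genes, 1 of 7 genes (14.3%) rose and 2 (28.6%) fell. The shares of all tested genes were 24.5% and 21.9%. Without replicate 6, 4 (57.1%) rose and 2 (28.6%) fell, against 33.8% and 32.2% of all tested genes. Srf read 64.6 to 70.3 CPM in the controls and 48.5 to 57.6 CPM in the compressed libraries and fell by 0.37 on the log2 scale (edgeR adjusted p = 3.74e-05; by 0.38 without replicate 6). Its partner Elk1 fell by 0.28 (edgeR adjusted p = 2.87e-04) and Elk3 rose by 0.11 (edgeR adjusted p = 0.0295), a call lost on leaving out control replicate 1, 2, 4, 5 or 6 or compressed replicate 1 or 2. The actin-regulated coactivators Mrtfa and Mrtfb had 0.09 and 0.02, Elk4 -0.09 and the inhibitor Scai 0.23, and none of these 4 passed with 12 libraries. Without replicate 6, Mrtfa, Mrtfb and Scai rose by 0.19, 0.17 and 0.36, Elk3 rose by 0.10 and Elk1 fell by 0.26 on the log2 scale.

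Muscle actins were near the floor of detection: of Acta1, Acta2, Actc1 and Actg2 only Acta2 passed the filter, at 0.514 to 1.26 CPM in the controls and 0.944 to 1.57 CPM in the compressed libraries, with a log2 fold change of 0.46 that did not pass (edgeR adjusted p = 0.086). In the other filament system, 4 of 17 tested tubulins and microtubule regulators (23.5%) rose and 10 (58.8%) fell, where 24.5% and 21.9% of all tested genes did, and the median was -0.29 on the log2 scale against 0.02 over all tested genes. Without replicate 6, 5 (29.4%) rose and 11 (64.7%) fell, against 33.8% and 32.2% of all tested genes. The beta-tubulin Tubb4b fell by 0.69 and the tubulin-binding Stmn1 by 0.98 on the log2 scale, while Tuba1a rose by 0.64 and Map1lc3a by 0.98 (edgeR adjusted p = 2.78e-07, 1.16e-05, 8.5e-04 and 2.55e-05). Without replicate 6 Tubb4b fell by 0.73 and Stmn1 by 1.1, and Tuba1a and Map1lc3a rose by 0.49 and 0.84.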

How the data were processed

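RNA from 12 samples of RAW264.7 cells (6 control, 6 compressed) was made into directional libraries after mRNA enrichment. The authors aligned reads with STAR 2.7.2, per the submitters' processing notes against GRCm39, and deposited a table of raw counts by Ensembl gene ID, whole numbers without normalization. No source used here gives the counting program, the strand setting or the annotation release. Names and exonic lengths (union of exons) came from GENCODE M21 of GRCm38, matched by ID for 51948 of 56941 IDs, which hold 99.5% of counts. Promoter windows were from RefSeq (GRCm38.p6), and no protein sequence is shown.

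Counts were kept by edgeR's filterByExpr (minimum count 10), scaled by TMM and tested with the quasi-likelihood F test on condition alone, as designed (R 4.3.3, edgeR 4.0.16). Genes at an adjusted p (Benjamini-Hochberg, 15001 tested genes) of 0.05 or less were called. Each standard error was derived from the log2 fold change and its F statistic and so restates the test. CPM were taken on the TMM-scaled library size, and log2 CPM used a prior count of 2. Ratios between 13 pairs of genes were taken within each library from counts plus 0.5 and compared by an exact two-sided permutation test of mean log2 ratios, adjusted over the 13 (SciPy 1.17.1). A CArG box was searched on both strands. Replicates of a group differed by more than counting error: the mean chi-square per gene was at least 2.19 in every pair of libraries, so none was counted as a repeat.

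The 49 genes, their roles, the pairs and the other lists were chosen with earlier results of these data known. Full values were given for called genes with an absolute log2 fold change of at least 0.5, for both actins and for the called gene of largest change of each role, and ranges or fold changes for the rest, and for each other list up to 4 called genes of largest change with at least 1 CPM in the higher group, besides all regulators of serum response factor. Values of some uncalled genes were added after they were seen, where replicate 6 decided them. Those of Coro2a, Coro7 and Fermt3 were also added after they were seen, as relatives of named genes. A further planned list is not reported here. The procedure was tested on simulated data. Alternatives were DESeq2 1.42.0, library size alone or RLE in place of TMM, replicate number as a block, no filter on low counts, a test against 1.2-fold (glmTreat), removal of each library's trend with exonic length, a pseudocount of 5, and each library left out.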

Additional observations from a re-analysis of the deposited data

Results flagged for a closer look

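Of 98 groups of 6 libraries checked for the 49 genes (control and compressed for each) and 26 for the 13 ratios, 47 held a library far from the other 5, judged by its gap to the nearest library over the range of the group, a limit that chance alone passes in about 5% of groups. Of the 37 flags of single genes, 34 were compressed replicate 6, with 16 genes highest and 18 lowest there.

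The genes flagged as highest in compressed replicate 6 were Actb at 4997 CPM, Pfn1 at 1746, Tmsb4x at 944, Tmsb10 at 354, Cfl1 at 2207, Arpc1a at 76.1, Arpc1b at 1166, Arpc2 at 939.7, Arpc3 at 312, Arpc4 at 249, Arpc5 at 439, Vasp at 655, Coro1a at 822, Capg at 1578, Capzb at 424 and Tpm1 at 217 CPM. All of these but Arpc1b and Tpm1 have less than 4 kb of exon.

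Those flagged as lowest in it were Cap1 at 781 CPM, Wdr1 at 270.2, Wasf2 at 145.5, Diaph1 at 142, Coro1c at 155, Capza1 at 154, Flna at 345, Actn1 at 182, Lcp1 at 1216, Iqgap1 at 482, Swap70 at 97.3, Tpm3 at 279, Ezr at 52.2, Msn at 543, Rdx at 113, Vcl at 45.3, Tln1 at 615 and Pxn at 168 CPM. Other genes were also highest or lowest in this library but did not pass the limit. Neither list is a set of genes of the same role, and the second holds all of the focal adhesion genes but Zyx and all of the ERM genes.

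In the controls, replicate 1 read lowest for Arpc2 at 613.5 CPM and highest for Actn4 at 570.5 CPM, and replicate 4 read lowest for Plek at 539 CPM. Among the ratios, compressed replicate 6 was flagged as highest for Actb to Actg1 at 9.17 and for Tpm1 to Tpm4 at 0.494, and as lowest for Actr2 to Actr3 at 1.07, Coro1b to Coro1a at 0.162, Coro1c to Coro1a at 0.189, Capza1 to Capza2 at 0.698, Actn1 to Actn4 at 0.476 and Tpm3 to Tpm4 at 0.633. Compressed replicate 5 was lowest for Ezr to Msn at 0.0846, and control replicate 6 for Coro1b to Coro1a at 0.228.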

How the results depend on the processing

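DESeq2 and RLE factors gave the 15 genes that rose and the 8 that fell again. Library size alone (12 and 8) and the fit with replicate number as a block (12 and 8, and 9 of 13 ratios where 10 passed) lost Arpc1a, Arpc2 and Capg, and no low-count filter (13 and 8) lost Arpc1a and Arpc2. Library size alone moved the median of all genes from 0.02 to -0.04. Deviations from the group mean had correlations of -0.12 to 0.040 between libraries of the same number. The compressed mean includes replicate 6, so these values do not settle whether the numbers pair libraries. Against 1.2-fold, 9 rose and 2 fell. With the length trend removed 21 rose (42.9%, 28.2% of all tested genes) and 11 fell (22.4%, 25.3%). The genes newly called there were Arpc3, Arpc5, Vasp, Capzb, Iqgap1 and Msn, which rose, and Actb, Arpc4 and Pxn, which fell. Leaving out each library gave 12 to 26 that rose and 8 to 14 that fell, the highest of both without compressed replicate 6, and 20 of the 23 calls held in every such fit. Over these fits log2 fold changes were -0.17 to 0.067 for Pfn1, -0.14 to 0.051 for Cfl1, -0.030 to 0.067 for Cap1, -0.059 to 0.040 for Arpc1b, -0.0878 to 0.13 for Flna, -0.032 to 0.092 for Vcl and -0.13 to 0.13 for the ratio of Capza1 to Capza2, each turning without compressed replicate 6; the cause was not tested. Over 931 comparisons, of all 49 genes in 19 alternatives, there were 29 changes of sign in genes called in neither fit compared. The values were -0.06 to 0.05. For the other lists, the test against 1.2-fold gave 8 and 2 (risen and fallen) of the actin regulators, 9 and 1 of the focal adhesion genes, 0 and 1 of the serum response factor genes and 6 fallen tubulin genes. The length correction gave 28 risen actin regulators, 7 fallen focal adhesion genes and 2 risen serum response factor genes, and library size alone 6 fallen focal adhesion genes and 0 risen serum response factor genes, which was also 0 with no filter and with the block. Leaving out each library gave 14 to 41 risen actin regulators, 2 to 6 fallen focal adhesion genes, 0 to 4 risen serum response factor genes and 0 to 1 risen muscle actin, the last Acta2 without control replicate 1; apart from that muscle actin the highest counts were without compressed replicate 6. Depth limits Fscn1 most among the 49 genes, with 376 counts in all controls together and 239 in all compressed libraries.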

Other observations

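The level of a typical gene of the 49 varied little between libraries of a group apart from compressed replicate 6. The coefficient of variation of CPM had a median over the 49 genes of 2.37% in the controls, 3.41% in compressed replicates 1 to 5 and 13.3% in all 6 compressed libraries.

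Smaller differences that went with exonic length were present among the other libraries as well. Over the 49 genes, each control minus the mean of the other 5 controls had a Spearman rho with length from -0.608 (replicate 3) to 0.652 (replicate 1), and each of compressed replicates 1 to 5 minus the mean of the other 4 from -0.644 (replicate 1) to 0.584 (replicate 3). The sizes were far below those of compressed replicate 6: the median of the 24 longer genes was 0.02 in control replicate 1 and -0.50 in compressed replicate 6, and that of the 25 shorter genes was -0.04 and 0.36. These are descriptions across genes that share libraries.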
